A study of Homo sapiens with 18 samples.

Results

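The genes carried by the human mitochondrial genome were followed through 18 RNA-seq libraries of OVCAR3, an established cell line of high-grade serous ovarian carcinoma. They were taken as every row of the count tables whose gene name begins with MT-, which gave 37 of 55765 rows: 13 protein-coding genes, 2 ribosomal RNAs (rRNAs) and 22 transfer RNAs (tRNAs). The libraries formed 2 series of 9, with 3 libraries in each of 6 groups. In the first series, adherent OVCAR3 cells received non-specific IgA or non-specific IgG, or were left untreated. In the second, they received IgA against BDNF, a neurotrophin, or IgA against TSPAN7, a tetraspanin of the cell surface, or were left untreated. Every group was grown in RPMI medium with fetal bovine serum, and the antibodies were given at 0.5 µg/ml for 24 h according to the labels, although another description of the same experiments gives a shorter time. The titles of the IgA and IgG libraries of the first series carry the word "coated", without further detail. All groups rest on 1 cell line, and nothing in the labels says that the libraries of a group came from separate cultures. A figure legend of the study gives 3 experiments for the first series, without naming separate cultures. The spread between the libraries of a group may thus be technical. The study asked how tumour cells respond to IgA that binds to them, and the comparisons below give the mitochondrial side of that response. Groups were compared within a series only.

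Human mitochondrial DNA is a small circle packed with genes. It encodes subunits of respiratory complexes I (the MT-ND genes), III (MT-CYB) and IV (the MT-CO genes) and of ATP synthase (MT-ATP6 and MT-ATP8), together with the rRNAs and tRNAs that translate them inside the organelle. Both strands are transcribed as long precursors that cover many genes, and the precursors are cut mainly at the tRNAs that lie between the other genes, so genes copied together can still differ in level through cutting and decay. MT-ND6 is the only protein-coding gene on the opposite strand, and all proteins that transcribe, cut and stabilize these RNAs come from nuclear genes.

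The 6 tRNA genes below are the ones whose rows passed the test in at least 1 comparison. Their sequences are the GRCh37 mitochondrial sequence between the GENCODE gene ends, read 5′ to 3′ on the strand of the tRNA and written with T, with the anticodon in capitals. MT-TT (threonine, chrM:15888-15953, + strand) begins at the base after MT-CYB ends. MT-TI (isoleucine, chrM:4263-4331, + strand), MT-TQ (glutamine, chrM:4329-4400, - strand) and MT-TM (methionine, chrM:4402-4469, + strand) form the cluster between MT-ND1 and MT-ND2, and MT-TI and MT-TQ overlap on opposite strands. MT-TA (alanine, chrM:5587-5655, - strand) lies between MT-ND2 and MT-CO1. MT-TL2 (leucine, chrM:12266-12336, + strand) lies directly before MT-ND5.
MT-TT: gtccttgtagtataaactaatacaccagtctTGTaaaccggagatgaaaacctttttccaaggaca
MT-TI: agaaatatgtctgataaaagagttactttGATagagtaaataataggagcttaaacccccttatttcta
MT-TQ: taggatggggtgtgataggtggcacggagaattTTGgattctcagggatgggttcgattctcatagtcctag
MT-TM: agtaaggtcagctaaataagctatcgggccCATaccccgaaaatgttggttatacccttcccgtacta
MT-TA: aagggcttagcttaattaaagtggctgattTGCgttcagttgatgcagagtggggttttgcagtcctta
MT-TL2: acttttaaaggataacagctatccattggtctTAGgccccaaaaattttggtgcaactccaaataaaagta

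Neighbouring protein-coding genes of the + strand overlap in 3 places, where reads belong to both genes. How such reads were counted is not given in the sources used here. MT-ATP8 and MT-ATP6 share 46 bases (chrM:8527-8572) and MT-ND4L and MT-ND4 share 7 (chrM:10760-10766), each pair on a shared messenger RNA, and MT-ATP6 and MT-CO3 share only base 9207. The overlaps of the 2 pairs with a shared messenger RNA are in capitals below, within the flanking sequence of the + strand.
MT-ATP8 and MT-ATP6: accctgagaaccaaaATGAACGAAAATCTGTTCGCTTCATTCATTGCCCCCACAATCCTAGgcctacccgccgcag
MT-ND4L and MT-ND4: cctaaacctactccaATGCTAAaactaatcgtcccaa

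The first series had 27920733 to 42371474 counts a library and the second 39254350 to 47381836, and the 37 rows held between 2048243 and 5334107 of them. The 95% Wilson interval of a library's mitochondrial share was at most 0.0146 percentage points to either side, which covers counting error only. Carcinoma markers were present in every library, with a sum for 8 genes including EPCAM, KRT8 and PAX8 of 4139 to 6166 CPM, the usual scaling of counts to a library's total. The 5 leukocyte markers summed to 0.667 to 2.02 CPM. IgA replicate 3 stood apart from the other 17 libraries: it had the most mitochondrial counts from the smallest total, the fewest genes with at least 10 counts (16062, against 16870 to 18485), and 2.09% of its counts in the nuclear RNAs MALAT1 and NEAT1, against 0.845% to 1.15%. Results that rest on it are given with and without it.

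In untreated cells, the level per length of the 15 rRNA and protein-coding genes, to which the order below is limited, covered more than an order of magnitude. On the scale of CPM per kilobase of gene length, MT-ATP8 was highest in the first series, at 14646 ± 421 (SD, n = 3). Its range lay clear of that of every other gene. MT-ATP8 is the shortest of the 15, at 207 bases, of which it shares 46 with MT-ATP6. How shared reads were counted is not given, so its rank in either series is one of counts per length, not of RNA amount. MT-ATP6, MT-ND4L, MT-ND4, MT-ND1, MT-CO2, MT-CO1 and MT-CO3 followed, from 8851 ± 424 down to 7208 ± 484, and each overlapped the next in order. MT-ND2, MT-ND3, MT-ND5 and MT-CYB formed a further level, from 5275 ± 103 to 4092 ± 301. The rRNAs lay below every protein-coding gene of the major strand, at 1456 ± 103 for MT-RNR2 and 1034 ± 80.8 for MT-RNR1. MT-ND6 was last of the 15, at 1025 ± 48.2, and overlapped MT-RNR1.

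The untreated cells of the second series had the same gene at the top and at the bottom of these 15. MT-ATP8 stood at 15813 ± 711 CPM per kilobase, followed by MT-ND1 at 12267 ± 584, and both ranges were clear of their neighbours. MT-ND6 stood at 559 ± 36.6, below MT-RNR1 at 1025 ± 149, and those ranges did not overlap. The kit takes total RNA, and its treatment of rRNA is not given in the sources used here. The counting of strand is not given either, so reads of MT-ND6 cannot be told apart from reads of the opposite strand at the same position. Only uniquely aligned reads were counted, and parts of these genes also occur elsewhere in the nuclear genome. Of all 75-base windows, the length of a read, 36.6% of those in MT-CO1, 34.4% in MT-ND2, 28.4% in MT-RNR1 and 28.01% in MT-ATP6 have an exact copy elsewhere in GRCh37. In MT-ATP8, MT-ND3, MT-ND4L, MT-ND4 and MT-CYB no window has one.

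**Figure D1:**
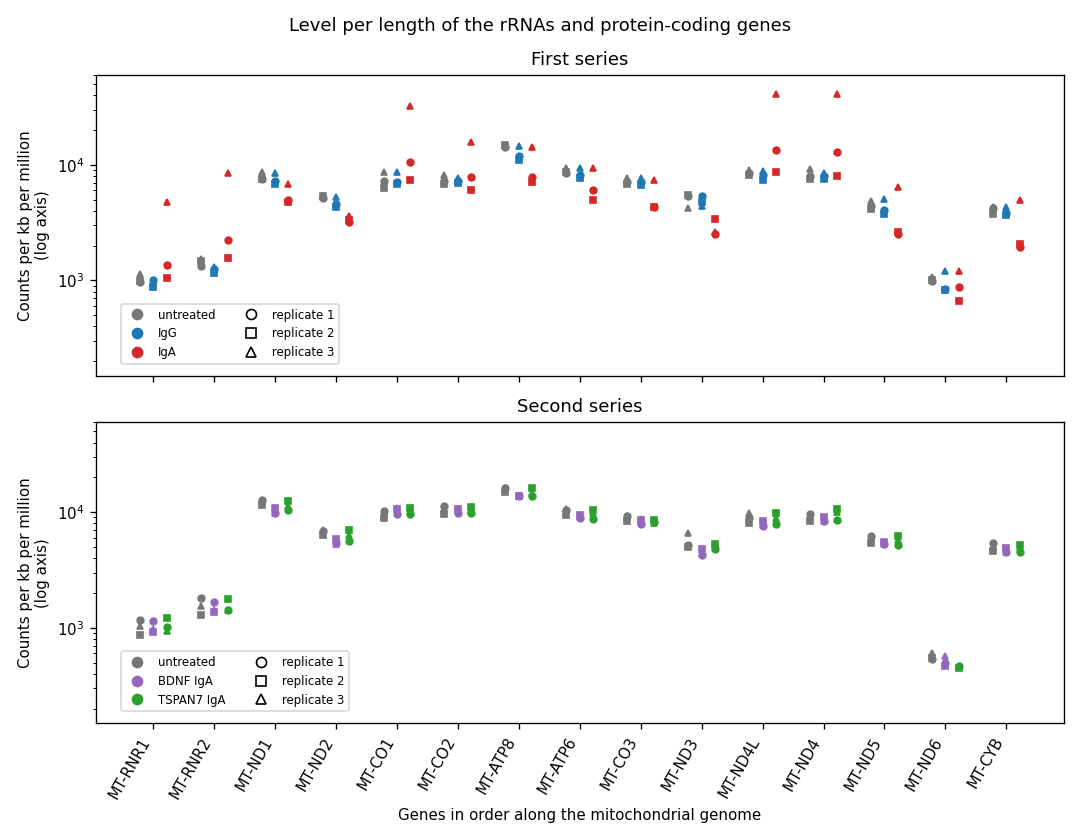
Level per length, in CPM per kilobase on a log axis, of the 2 rRNAs and 13 protein-coding genes in genome order, with 1 point per library coloured by group and shaped by replicate. MT-ATP8 leads in untreated cells of both series, at 14646 and 15813, and IgA replicate 3 reaches 40915 for MT-ND4.

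The order changed in cells given non-specific IgA. MT-ND4L led with 20883 ± 17219 CPM per kilobase, ahead of MT-ND4 at 20649 ± 17728 and MT-CO1 at 16710 ± 13485, and MT-ATP8 stood below them at 9730 ± 3823. Without IgA replicate 3 the means were 11042 for MT-ND4L, 10516 for MT-ND4, 8981 for MT-CO1 and 7534 for MT-ATP8. IgA replicate 3 carried the largest value of each of these genes, and with it each overlapped the next in order. In IgG-treated cells the leading 4 genes were those of untreated cells in the same order, from MT-ATP8 at 12572 ± 1883 to MT-ND4 at 7993 ± 485.

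Non-specific IgA was compared with non-specific IgG to ask what the antibody class does to the cells. The mitochondrial RNAs did not move as a block. Both rRNAs, the MT-ND4L and MT-ND4 pair of complex I and MT-CO1 of complex IV were higher with IgA, while MT-ND3 of complex I and the tRNA rows MT-TQ and MT-TT were lower. These were the 5 and 3 genes called among the 35 tested, by edgeR's quasi-likelihood test at a Benjamini-Hochberg adjusted p under 0.05 across 18012 genes. Over all genes, 12.6% were called higher and 11.6% lower, so the numbers of calls by themselves do not set the mitochondrial genes apart. The median log2 fold change was -0.09 over the 35 and -0.01 over all genes tested.

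MT-RNR2, the large rRNA, had 132632, 86449 and 587829 normalised counts in IgA replicates 1 to 3, a unit that brings all libraries of a series to one common effective size. It had 64612, 59016 and 68856 with IgG and 69444, 78480 and 82191 in untreated cells. All 3 IgA libraries lay above all 6 others, with replicate 3 far above the rest. The log2 fold change was 2.07 ± 0.51 (SE) against IgG, with an adjusted p of 0.011 by edgeR, and 1.81 ± 0.50 against untreated cells, with an adjusted p of 0.019.

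MT-RNR1, the small rRNA, gave 49486, 35662 and 199317 normalised counts with IgA. With IgG it gave 31897, 27605 and 30807, and in untreated cells 30970, 32345 and 36704. The IgA libraries were above all IgG libraries, but IgA replicate 2 lay within the untreated range. The log2 fold changes were 1.66 ± 0.46 against IgG and 1.51 ± 0.45 against untreated cells, with adjusted p of 0.019 and 0.028 by edgeR.

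MT-ND4, a core subunit of complex I, reached 687301, 393032 and 2486652 normalised counts with IgA. The IgG libraries held 361557, 341584 and 393262, and the untreated ones 362616, 353192 and 433781. IgA replicates 1 and 3 were above every IgG and untreated library and IgA replicate 2 was not. MT-ND4L, which shares its messenger RNA, had 153469, 90888 and 531360 normalised counts with IgA against 71543 to 88093 with IgG and 82533 to 92267 in untreated cells. The log2 fold changes against IgG were 1.70 ± 0.47 for MT-ND4 and 1.69 ± 0.45 for MT-ND4L (adjusted p of 0.019 and 0.016 by edgeR), and against untreated cells 1.63 ± 0.47 and 1.58 ± 0.45. The ratio of MT-ND4 to MT-ND4L counts stayed between 4.28 and 4.77 in all 9 libraries of the series, so the pair moved together.

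MT-CO1, the catalytic subunit of complex IV, had 626659, 403697 and 2187691 normalised counts with IgA. It had 363032, 349655 and 444939 with IgG and 367183, 332147 and 455587 in untreated cells. IgA replicate 2 again fell within the range of the other groups. The log2 fold change was 1.48 ± 0.44 against IgG (adjusted p of 0.029 by edgeR) and 1.48 ± 0.44 against untreated cells (adjusted p of 0.028).

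Of the genes that were lower with IgA, MT-ND3, a small membrane subunit of complex I, had 33338, 41533 and 40396 normalised counts. The IgG libraries gave 61930, 54565 and 50664 and the untreated ones 61947, 64170 and 49937. The IgA libraries were below all 6 others, and here replicate 3 lay between the other 2 IgA libraries. The log2 fold change was -0.54 ± 0.13 against IgG and -0.61 ± 0.13 against untreated cells, with adjusted p of 0.010 and 0.0048 by edgeR. MT-ND2, another membrane subunit of complex I, had 128982, 122447 and 167065 normalised counts with IgA against 178369 to 189798 in untreated cells, where the groups did not overlap. It fell by 0.41 on the log2 scale (SE 0.14, adjusted p of 0.041 by edgeR) against untreated cells, a call kept without IgA replicate 3 and lost without any 1 of the 5 other libraries compared, while against IgG the difference of -0.23 ± 0.14 did not pass.

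Against untreated cells, 5 mitochondrial genes were called higher with IgA and 5 lower, beside 12.9% and 12.1% of all genes. The genes called higher were those called against IgG. Those called lower were MT-ND2, MT-ND3, MT-TQ, MT-TT and MT-TA. Every IgA library was above every untreated one in 1 of the 35 genes, MT-RNR2, beside 19.8% of all genes, and below in 7, beside 20.1%. Both comparisons use the same IgA libraries and so share their chance error. The count called higher also rested on the control libraries. Against IgG it dropped to 2 when IgG replicate 1 was left out (beside 8.82% of all genes) and to 1 for IgG replicate 2 or 3 (7.23% and 7.19%), and against untreated cells it was 0 without any 1 of the 3 untreated libraries (beside 7.37% to 8.52%). MT-RNR2 was called against IgG in all 6 fits that left out 1 library. Of the genes lower, 3 were called against untreated cells without any 1 untreated library or without IgA replicate 1, MT-TA, MT-ND3 and MT-TT each time. Over all genes, 6.67% to 8.16% were lower without 1 untreated library and 9.7% without IgA replicate 1. The count of 3 by itself therefore does not set the mitochondrial genes apart.

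Without IgA replicate 3 the fold changes of the rRNAs and of the other genes called higher were smaller, and those of most protein-coding genes below IgG were larger. Against IgG, 7 of 35 genes were then called higher and 10 lower, beside 12.9% and 12.9% of the 18614 genes tested. The log2 fold changes of the rRNAs dropped to 0.77 ± 0.15 for MT-RNR2 and 0.50 ± 0.13 for MT-RNR1, and those of MT-ND4L and MT-ND4 to 0.61 ± 0.17 and 0.56 ± 0.18, all 4 still called by edgeR. MT-CO1, at 0.41, was no longer called (adjusted p of 0.095). The tRNA rows MT-TK, MT-TE and MT-TP joined the genes called higher.

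On the other side, 8 protein-coding genes were called lower than with IgG once replicate 3 was left out. MT-CYB, of complex III, had the smallest adjusted p, with a log2 fold change of -0.81 ± 0.11. MT-CO3 of complex IV followed at -0.56 ± 0.11, and the ATP synthase genes stood at -0.58 ± 0.13 for MT-ATP8 and -0.44 ± 0.13 for MT-ATP6. MT-ND1, MT-ND2, MT-ND3 and MT-ND5 of complex I ranged from -0.59 to -0.38. With all 3 IgA libraries, the values of MT-ND5, MT-CYB, MT-CO3, MT-ATP8 and MT-ATP6 lay between -0.13 and 0.14 against IgG and none was called. Their normalised counts show the split: MT-CYB had 85506 and 84052 in IgA replicates 1 and 2 and 251191 in replicate 3, against 137857 to 164410 with IgG. Replicates 1 and 2 were below every IgG library and replicate 3 above every one.

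Against untreated cells and without IgA replicate 3, 5 mitochondrial genes were called higher and 11 lower, beside 13.2% and 12.8% of all genes tested. MT-RNR2 (0.51 ± 0.15) and MT-ND4L (0.50 ± 0.17) were called higher, and MT-RNR1, MT-ND4 and MT-CO1, at 0.35, 0.49 and 0.42 on the log2 scale, no longer passed. MT-CYB, at -0.90 ± 0.11, and MT-ATP8, at -0.83 ± 0.13, had the smallest adjusted p among those lower.

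In the makeup of the mitochondrial counts, where the total of a library does not enter, some genes held a larger share with IgA and others a smaller one. These shares divide the same counts again, so they are not a separate observation. MT-ND4 made up 24.3%, 19.2% and 29.5% of the mitochondrial counts in IgA replicates 1 to 3. It made up 14.4% to 15.4% in the 6 IgG and untreated libraries. MT-CO1 made up 22.1%, 19.7% and 26.0% with IgA and 13.6% to 16.3% in the others. Each IgA library was above each of the others in both.

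MT-CYB held a smaller share, with 3.02%, 4.11% and 2.98% of the mitochondrial counts in the IgA libraries and 5.94% to 6.42% in the other 6. Its log2 fold change in counts against IgG, -0.09, was not called. MT-CO3 held 4.59%, 5.91% and 3.04% with IgA and 7.29% to 7.77% elsewhere. MT-ND1, next to the rRNAs on the genome, held 6.46%, 7.99% and 3.42% with IgA and 9.57% to 10.04% elsewhere. No IgA library reached the range of the other groups for these genes.

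Over the 15 rRNA and protein-coding genes, all 3 IgA libraries exceeded all 3 IgG libraries in the share held by 5 genes, MT-RNR1, MT-RNR2, MT-CO1, MT-ND4L and MT-ND4. They fell short of all 3 in the share held by 7, MT-ND1, MT-ND2, MT-ATP8, MT-ATP6, MT-CO3, MT-ND5 and MT-CYB. MT-CO2, MT-ND3 and MT-ND6 overlapped. Shares sum to a fixed total, so a gain of some genes lowers the rest. On the scale of normalised counts, where 19.7% of all genes had every IgA library above every IgG library and 20.6% below, 3 and 5 of the 35 mitochondrial genes tested did. Relative to the mean untreated share, IgA replicate 3 was the farthest of the IgA libraries for all 15 genes and replicate 2 the nearest for 14, MT-ND6 being the exception. Leaving out replicate 3 reduced the log2 ratio of mean shares to IgG from 1.00 to 0.75 for MT-RNR2 and from -0.86 to -0.78 for MT-CYB. The ratio moved by over 1.5 times for MT-ND1 (-0.71 to -0.43), MT-ND2 (-0.68 to -0.35), MT-ND3 (-0.91 to -0.53) and MT-ND6 (-0.38 to -0.14), and for MT-CO2 it turned from -0.03 to 0.08.

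**Figure D2:**
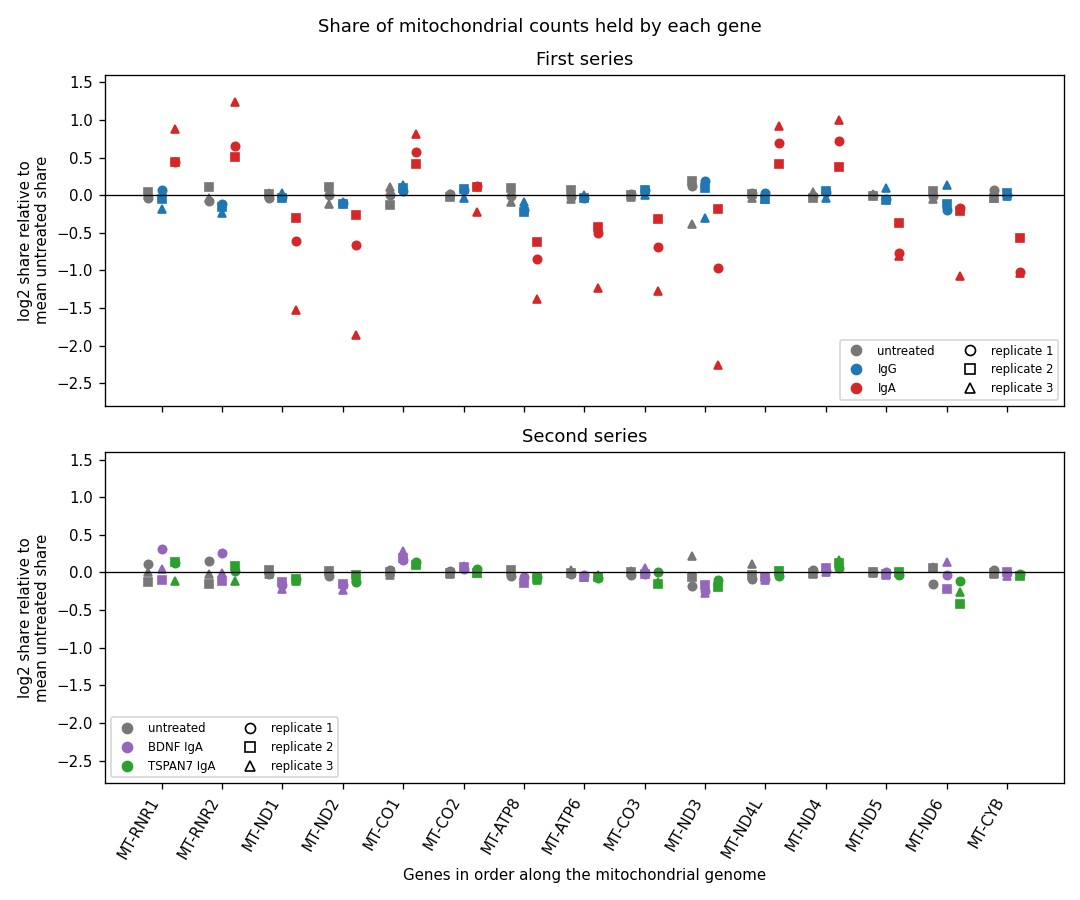
Share of a library's mitochondrial counts held by each gene, as log2 relative to the mean share in untreated cells of the same series, with 1 point per library. The IgA libraries stand above 0 for MT-RNR1, MT-RNR2, MT-CO1, MT-ND4L and MT-ND4 and below 0 for MT-ND1, MT-ND2, MT-ATP8, MT-ATP6, MT-CO3, MT-ND5 and MT-CYB, while every library of the other groups is closer to 0 in these 12 genes.

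The 2 rRNAs together made up 6.43%, 5.97% and 9.34% of the mitochondrial counts with IgA. They made up 4.08%, 3.91% and 3.65% with IgG and 4.06%, 4.53% and 4.19% in untreated cells. The mean difference from IgG was 3.37 percentage points and that from untreated cells 2.99, with no overlap in either. The two-sided exact permutation p was 0.1 for both, the smallest that 3 against 3 allows, and 0.6 after Benjamini-Hochberg adjustment over 24 such tests (4 shares in 6 comparisons). The mitochondrial share of all counts overlapped between IgA and IgG, with means of 10.7% ± 7.28 and 7.34% ± 0.707 and an exact permutation p of 0.8 (adjusted 0.98). The higher IgA mean rested on replicate 3, without which it was 6.57% ± 1.16 (n = 2) and the difference from IgG was -0.769 percentage points.

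MT-ND6, the complex I gene of the opposite strand, had 17669, 12415 and 28189 normalised counts with IgA. It had 14587, 14379 and 21090 with IgG and 17246, 17932 and 19358 in untreated cells. The groups overlapped, and its log2 fold changes of 0.22 ± 0.23 against IgG and 0.10 ± 0.23 against untreated cells did not pass. As a share of mitochondrial counts it was 0.624%, 0.607% and 0.335% with IgA, below the untreated range of 0.682% to 0.733%.

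The tRNA rows behaved differently in IgA replicate 3 from the other libraries. That library held 439 tRNA counts and had 14 of the 22 rows at 0. IgA replicates 1 and 2 held 4360 and 3493, and the other 15 libraries of both series 3369 to 5367, with at most 2 rows at 0. In CPM taken over nuclear counts alone this was 19.4 in IgA replicate 3 and 103 to 144 in the others. Short nuclear genes, under 120 bases, were not low in the same library, at 224 CPM over nuclear counts, against 158 to 229 in the other 8 of the series. MT-TL1, leucine tRNA between MT-RNR2 and MT-ND1, held most tRNA counts everywhere, with 464 normalised counts in IgA replicate 3 and 1786 to 3434 in the other 17. A mature tRNA is about as short as a single read, and what part of it the kit retains was not measured.

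MT-TT and MT-TQ were the tRNA rows called lower against both other groups. MT-TT had 20.2, 119 and 7.90 normalised counts with IgA, against 268, 382 and 304 with IgG and 261, 373 and 358 in untreated cells. MT-TQ had 11.2, 75.9 and 0, against 115, 112 and 221 with IgG and 143, 112 and 158 in untreated cells. In both rows every IgA library was below all 6 others. Against IgG the log2 fold change was -2.61 ± 0.56 for MT-TT (adjusted p of 0.0051 by edgeR) and -2.25 ± 0.70 for MT-TQ (adjusted p of 0.034). Both stayed called without IgA replicate 3, at -2.17 ± 0.44 and -1.74 ± 0.51. The MT-TT call against IgG was kept whichever library was left out. That of MT-TQ was lost without IgA replicate 1 or any 1 of the IgG libraries (adjusted p of 0.051 to 0.13 by edgeR) and with DESeq2 (0.13), and against untreated cells without IgA replicate 1 or any 1 of the untreated libraries. MT-TQ overlaps MT-TI on the other strand, and MT-TI, with 12.3, 0.999 and 0 normalised counts with IgA and 5.19 to 11.3 in the other 6 libraries, was not called.

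MT-TA had 2, 1 and 0 counts with IgA, against 2, 11 and 7 with IgG and 10, 29 and 38 in untreated cells. The ratio of summed counts, corrected for library totals, was 0.0458 of the untreated value, with a 95% exact counting interval of 0.00923 to 0.139. Against IgG the ratio was 0.157 (0.0298 to 0.528), and that difference was not called. Both intervals cover counting error only, not the spread between libraries. Only against untreated cells did edgeR call MT-TA, at an adjusted p of 0.0081.

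In contrast, MT-TE, on the strand of MT-ND6 and next to it, had 236, 80.9 and 34.8 normalised counts with IgA. The 6 other libraries had 33.6 to 67.7, so IgA replicates 1 and 2 were above them and replicate 3 was within. MT-TP, also on that strand, had 392, 303 and 126 with IgA and 124 to 251 in the others. Neither was called with all 3 IgA libraries. Without replicate 3, both were called against both groups, and the log2 fold changes against IgG were 1.83 ± 0.39 for MT-TE and 0.98 ± 0.27 for MT-TP.

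**Figure D3:**
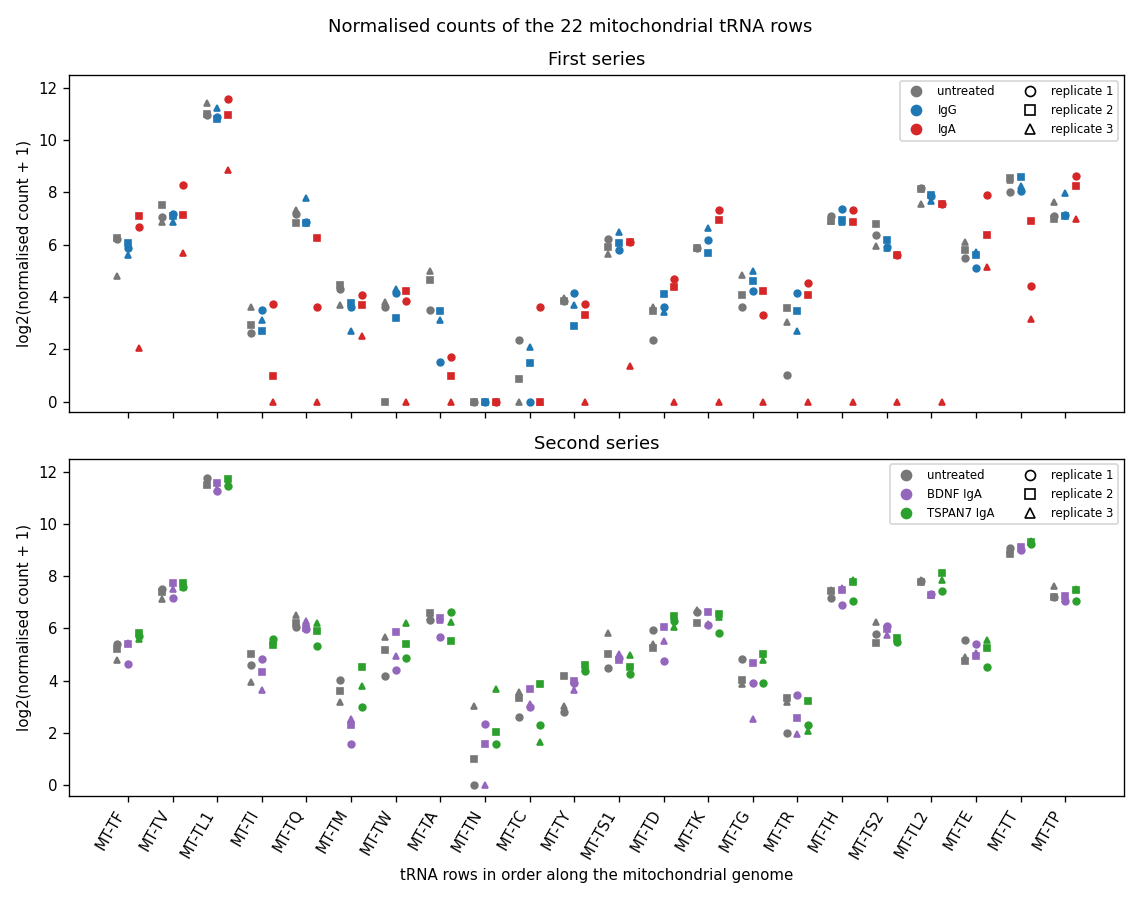
Normalised counts of the 22 tRNA rows in genome order, as log2(normalised count + 1), with 1 point per library. IgA replicate 3, the red triangles, is at 0 in 14 rows and lowest in most others, and the red circles and squares are low for MT-TQ, MT-TA and MT-TT and high for MT-TE and MT-TP.

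Other values also differed in IgA libraries, some of them with overlap or not in all IgA libraries. Genes with at least 10 counts numbered 16062 to 16959 with IgA and 17136 to 18031 in the rest of the series. Short nuclear genes had 162 and 158 CPM over nuclear counts in IgA replicates 1 and 2, below the 195 to 229 of the 6 IgG and untreated libraries. IgA replicate 3, at 224, lay within that range. The 3 fibroblast markers COL1A1, COL1A2 and DCN summed to 67.0 to 110 CPM with IgA and 62.2 to 71.9 in the rest of the series. The endothelial marker CDH5 had 0.322 to 1.12 CPM with IgA and 0.0313 to 0.368 in the others. The part of these in the mitochondrial values was not tested.

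**Figure D4:**
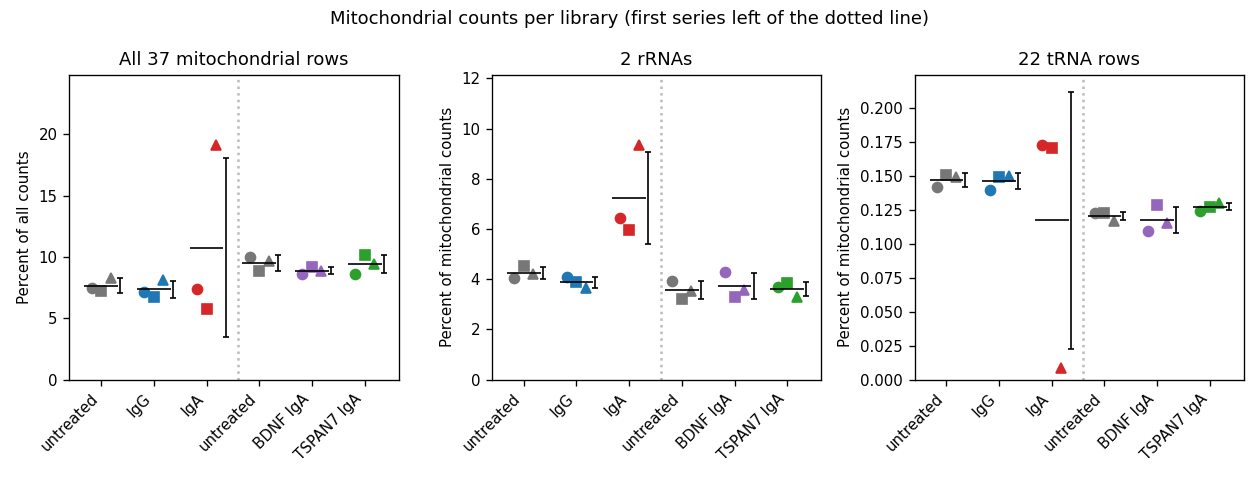
Mitochondrial counts in each library: all 37 rows as a percentage of all counts, and the 2 rRNAs and 22 tRNA rows as percentages of the mitochondrial counts. Points are libraries (circle, square and triangle for replicates 1, 2 and 3), lines are group means and bars are ± 1 SD (n = 3). The rRNA share of all 3 IgA libraries, from 5.97% to 9.34%, is above that of the others, and IgA replicate 3 is at 19.1% in the first panel and 0.00823% in the third.

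IgG was compared with untreated cells as the control for antibody as such. No mitochondrial gene was called in either direction, beside 0% of all 18012 genes by edgeR, and DESeq2 and limma's voom called none either. At an unadjusted p under 0.05 there was 1 of 35, MT-TA, beside 0.494% of all genes. MT-RNR2, with 59016 to 68856 normalised counts with IgG and 69444 to 82191 in untreated cells, and MT-TA were the 2 genes whose IgG libraries all lay below the untreated ones, beside 3.43% of all genes; none had all above, beside 3.32%. The largest log2 fold change was 0.84 ± 0.81 for MT-TW and the smallest -1.73 ± 0.75 for MT-TA, both rows with at most 38 counts in a library. MT-ND6 differed by -0.12 ± 0.23. The common dispersion of the first series, 0.0307, was about an order of magnitude above the 0.00303 of the second.

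The second series asked how cells respond to IgA of a given specificity. With BDNF IgA, complex I genes and an ATP synthase gene were lower than in untreated cells. MT-ND1, MT-ND2, MT-ND3, MT-ATP8 and the tRNA row MT-TL2 were called lower, 5 of 35, beside 3.18% of the 18732 genes tested. None was called higher, beside 4.49% of all genes, and 0 were called higher by DESeq2 and voom. At an unadjusted p under 0.05, 0 of the 35 were higher and 13 lower, beside 22.1% of all genes in either direction. The median log2 fold change was -0.14 over the 35 and 0.00 over all genes tested.

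MT-ND1 had 398553, 436161 and 393824 normalised counts with BDNF IgA. It had 520113, 471833 and 507065 in untreated cells and 424336, 507991 and 458579 with TSPAN7 IgA. The BDNF IgA libraries were below all untreated ones and overlapped TSPAN7 IgA. The log2 fold change against untreated cells was -0.29 ± 0.06, with an adjusted p of 0.0037 by edgeR.

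MT-ND2 had 240255, 254326 and 233345 normalised counts with BDNF IgA against 305003, 280782 and 311854 in untreated cells. MT-ND3 had 62692, 69964 and 63090 against 77209, 73402 and 98698. Neither gene overlapped between the groups. Their log2 fold changes were -0.30 ± 0.06 and -0.35 ± 0.08, with adjusted p of 0.0047 and 0.0061 by edgeR.

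MT-ATP8, a small subunit of ATP synthase, was almost the same in the BDNF IgA libraries, with 120717, 120196 and 119845 normalised counts. The untreated libraries held 143006, 131710 and 143677, all higher. It fell by 0.21 on the log2 scale (SE 0.05, adjusted p of 0.015 by edgeR). MT-ATP6, on the same messenger RNA, had a log2 fold change of -0.17 ± 0.06 that did not pass (adjusted p of 0.086). MT-TL2 had 159, 156 and 154 normalised counts with BDNF IgA and 223, 217 and 228 in untreated cells, a log2 fold change of -0.51 ± 0.14 (adjusted p of 0.031). Its call was lost when any of 5 of the 6 libraries was left out, although the fold change stayed between -0.53 and -0.49.

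The number of genes lower with BDNF IgA depended on single libraries. It was 9 without BDNF IgA replicate 2, when MT-TL1, MT-ATP6, MT-ND4L and MT-CYB joined, beside 6.74% of all genes lower in that fit, and 3 without untreated replicate 1 or 3, beside 1.97% and 1.9%. The 3 complex I genes were called in each of the 6 fits. In 7 of the 35 genes every BDNF IgA library was below every untreated one, beside 12% of all genes, and in none was every one above, beside 12.8%.

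The rRNAs and MT-CO1 were not called. The log2 fold changes with BDNF IgA were -0.04 ± 0.09 for MT-RNR1, -0.07 ± 0.10 for MT-RNR2 and 0.10 ± 0.06 for MT-CO1. As a share of mitochondrial counts, MT-CO1 held 17.3%, 17.8% and 18.9% with BDNF IgA and 15.2% to 15.8% in untreated cells. MT-ND1 held 11.0%, 11.4% and 10.6%, against 12.2% to 12.6%. Both ranges were clear of each other, in opposite directions. MT-CO2 also held a larger share without overlap, and MT-ND2, MT-ATP8 and MT-ATP6 smaller ones. These differences in share were not tested. MT-ND6 had 11018, 10244 and 12684 normalised counts against 11936, 12101 and 13508 in untreated cells, and its difference of -0.15 ± 0.06 did not pass (adjusted p of 0.16 by edgeR).

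**Figure D5:**
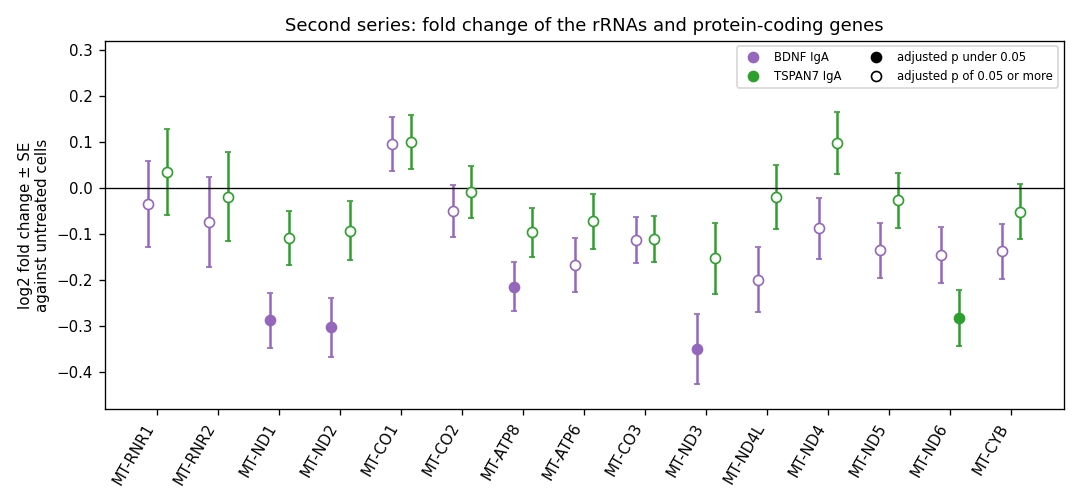
Log2 fold change ± SE (edgeR) of the 2 rRNAs and 13 protein-coding genes with BDNF IgA and with TSPAN7 IgA, each against the same 3 untreated libraries of the second series. Filled points passed an adjusted p of 0.05: MT-ND1, MT-ND2, MT-ATP8 and MT-ND3 with BDNF IgA, from -0.35 to -0.21, and MT-ND6 with TSPAN7 IgA, at -0.28.

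With TSPAN7 IgA, MT-ND6 was lower and the tRNA row MT-TT higher than in untreated cells, 1 gene in each direction of 35 tested, beside 4.08% and 4.46% of all 18732 genes. MT-ND6 had 10462, 10096 and 10315 normalised counts with TSPAN7 IgA, close together and below the untreated 11936, 12101 and 13508. The log2 fold change was -0.28 ± 0.06, with an adjusted p of 0.0051 by edgeR, and it was called whichever library was left out.

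MT-TT had 596, 637 and 657 normalised counts with TSPAN7 IgA and 536, 461 and 509 in untreated cells, without overlap. It rose by 0.33 ± 0.08 on the log2 scale, with an adjusted p of 0.011 by edgeR. The call was lost without TSPAN7 IgA replicate 2 or 3 or untreated replicate 2. MT-TY had the largest log2 fold change, 1.09 ± 0.42, from 19.97, 23.2 and 21.7 normalised counts against 6.08, 17.2 and 7.22, and MT-TS1 the smallest, -0.63, and neither passed.

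In 6 of 35 genes every TSPAN7 IgA library was above every untreated one, beside 14.4% of all genes, and 1 was below, beside 14%. The 6 were the tRNA rows MT-TF, MT-TI, MT-TY, MT-TD, MT-TT and MT-TV. The tRNA share of mitochondrial counts was 0.124%, 0.127% and 0.130% with TSPAN7 IgA and 0.122%, 0.122% and 0.117% in untreated cells. The groups did not overlap, with an exact permutation p of 0.1 (adjusted 0.6). The median log2 fold change was -0.01 over the 35 and 0.00 over all genes.

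MT-CO1 and MT-ND4 held larger shares of the mitochondrial counts with TSPAN7 IgA. MT-CO1 held 17.1%, 16.6% and 16.8%, and MT-ND4 held 13.6%, 14.3% and 14.7%, above the untreated ranges of 15.2% to 15.8% and 12.9% to 13.4%. MT-ND1 held 11.6%, 11.7% and 11.4%, below the untreated 12.2% to 12.6%. MT-ATP8, MT-ATP6 and MT-CYB also held smaller shares without overlap, and the rest of the 15 genes overlapped. These differences in share were not tested. Each specific IgA thus gave MT-CO1 a larger share and MT-ND1 a smaller one than untreated cells, but both were set against the same 3 untreated libraries.

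Set directly against BDNF IgA, TSPAN7 IgA gave higher counts of MT-ND2 and of the tRNA rows MT-TI, MT-TM and MT-TL2. These 4 of 35 stand beside 3.42% of all genes called higher. None was called lower, beside 4.5% of all genes, and DESeq2 and voom called 0 lower. At an unadjusted p under 0.05, 12 of the 35 were higher and 1 lower, beside 22.5% of all genes in either direction. MT-ND2 had 247284, 313039 and 281867 normalised counts with TSPAN7 IgA and 240255, 254326 and 233345 with BDNF IgA. TSPAN7 IgA replicate 1 lay within the BDNF IgA range. The log2 fold change was 0.21 ± 0.06, with an adjusted p of 0.046 by edgeR, and was called only without TSPAN7 IgA replicate 1 or BDNF IgA replicate 2 among fits that left out 1 library.

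MT-TM, which reads the start codon and lies directly before MT-ND2, had 6.99, 22.1 and 12.99 normalised counts with TSPAN7 IgA and 2.02, 3.995 and 4.75 with BDNF IgA. MT-TI had 46.9, 40.1 and 44.4 against 27.3, 19.0 and 11.4. MT-TL2 had 171, 279 and 232 against 159, 156 and 154. No group overlapped in these rows. The log2 fold changes were 1.92 ± 0.57, 1.19 ± 0.34 and 0.54 ± 0.14, with adjusted p of 0.041, 0.035 and 0.024 by edgeR.

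MT-TC had the smallest log2 fold change in that comparison, -0.42, and did not pass. MT-ND6 was -0.14 ± 0.06 and did not pass either. The count of 4 was 11 without BDNF IgA replicate 2, beside 8.1% of all genes higher in that fit, and 6 without TSPAN7 IgA replicate 1, beside 2.7%. It was 1 without BDNF IgA replicate 1 (1.28% of all genes) and 0 without BDNF IgA replicate 3 or TSPAN7 IgA replicate 2 or 3 (1.02% to 1.78%).

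Proteins made from nuclear genes copy and process all these RNAs. A list of 20 tested genes for mitochondrial transcription and its regulators had 2 higher and 6 lower with IgA against IgG. A list of 25 for processing and decay of mitochondrial RNA had 0 and 4 (1 higher at an unadjusted p under 0.05, and 1 by DESeq2). Over all genes 12.6% were called higher and 11.6% lower, and 37.5% had an unadjusted p under 0.05 in either direction. The median log2 fold changes were -0.17 and -0.11, against -0.01 over all genes. Without IgA replicate 3 the median of the transcription list was -0.06, against -0.02 over all genes. That fit called 3 of its genes higher and 5 lower, beside 12.9% and 12.9% of all genes. The IgA values of the nuclear genes named below include IgA replicate 3. Leaving out 1 library gave 0 to 3 higher and 4 to 9 lower in the transcription list, the extremes without IgG replicate 1 (0 higher and 4 lower), IgG replicate 2 (4 lower), IgA replicate 3 (3 higher) and IgA replicate 2 (9 lower). In the processing list it gave 0 to 2 higher and 2 to 6 lower, with 2 higher without IgA replicate 3, 2 lower without IgG replicate 2 and 6 lower without IgA replicate 2. The share of all genes called moved too in these fits. It ran from 7.19% to 13.6% higher and from 6.59% to 14.9% lower, both largest without IgA replicate 2.

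In the transcription list, PPARGC1B, a coactivator of nuclear genes for mitochondria, fell by 1.49 on the log2 scale (SE 0.14, adjusted p of 2.9e-05 by edgeR). MTERF, which binds the mitochondrial DNA near the end of the rRNA genes, fell by 1.10 (SE 0.24) and MTERFD2, a relative, fell by 0.95 (SE 0.13). TFAM, which packs the mitochondrial DNA and helps start transcription, fell by 0.48 (SE 0.16). POLRMT, the mitochondrial RNA polymerase, rose by 0.40 ± 0.11 and TOP1MT, the mitochondrial topoisomerase, by 0.41 ± 0.11. All IgA libraries were on one side of all IgG libraries for each of these 6 genes, which were named for their changes. Over all genes, 19.7% had every IgA library above every IgG library and 20.6% below.

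In the processing list, FASTKD1 fell by 0.71 (SE 0.18), TRMT10C, a subunit of the enzyme that cuts at the 5′ ends of mitochondrial tRNAs, by 0.66 (SE 0.15), and FASTKD5, needed to cut junctions without a tRNA, by 0.63 (SE 0.16). Against untreated cells the counts were 2 higher and 8 lower in the transcription list and 1 and 4 in the processing list, beside 12.9% and 12.1% of all genes. The 3 largest changes there were those of PPARGC1B, MTERF and MTERFD3, at -1.47, -1.10 and -0.89, and in the processing list TRMT10C, FASTKD1 and FASTKD5, at -0.72, -0.65 and -0.51. These counts fell to 4 lower in the transcription list without untreated replicate 2 and to 1 lower in the processing list without IgA replicate 1 or untreated replicate 1 or 2. Of all genes, 8.16% were lower without untreated replicate 2, 9.7% without IgA replicate 1 and 7.48% without untreated replicate 1. With IgG against untreated cells no gene of either list was called by edgeR or DESeq2. An unadjusted p under 0.05 was reached by 0, beside 0.494% of all genes.

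In the second series, TSPAN7 IgA against untreated cells had 0 higher and 2 lower of the 20 transcription genes and 1 and 0 of the 25 processing genes, beside 4.46% and 4.08% of all genes. BDNF IgA had 0 and 1, and 1 and 0, beside 4.49% and 3.18%, and TSPAN7 IgA against BDNF IgA had 1 and 0 in each list, beside 3.42% and 4.5%. Where edgeR called 0, an unadjusted p under 0.05 was reached by 2 transcription genes higher and 0 processing genes lower with TSPAN7 IgA, by 1 and 2 with BDNF IgA, and by 2 transcription and 0 processing genes lower between the antibodies. Over all genes, 22.1%, 22.1% and 22.5% reached it in either direction. With TSPAN7 IgA, PNPT1, a subunit of the exoribonuclease that degrades mitochondrial RNA, rose by 0.39 ± 0.05 (adjusted p of 2.5e-05 by edgeR), and PPARGC1B and C10orf2, the mitochondrial DNA helicase, fell by 0.22 and 0.20. With BDNF IgA, PNPT1 rose by 0.18 ± 0.05 and SSBP1, which coats single-stranded mitochondrial DNA, fell by 0.19. Between them, PNPT1 and MTERFD1 were higher with TSPAN7 IgA, by 0.21 and 0.26. These counts moved with single libraries: with TSPAN7 IgA the 2 transcription genes lower became 0 without TSPAN7 IgA replicate 2 or 3 or untreated replicate 2 and 1 without untreated replicate 1 or 3, and the 1 processing gene higher became 3 without TSPAN7 IgA replicate 1. With BDNF IgA, 0 processing genes were higher without BDNF IgA replicate 1 or untreated replicate 1 or 3, and 0 transcription genes were lower without BDNF IgA replicate 3 or untreated replicate 2 or 3, while 2 were without BDNF IgA replicate 2. Between the 2 antibodies, 0 processing genes were higher without BDNF IgA replicate 3 or TSPAN7 IgA replicate 2, and 0 transcription genes without replicate 1 or 3 of BDNF IgA or replicate 2 or 3 of TSPAN7 IgA. Over all genes, fits that left out 1 library called 2.24% to 3.59% higher and 1.71% to 3.56% lower with TSPAN7 IgA. They called 2.24% to 7.85% higher and 1.53% to 6.74% lower with BDNF IgA, and 1.02% to 8.1% and 1.49% to 8.98% between the antibodies. In bulk RNA, a change in the number of mitochondria per cell and a change in RNA per mitochondrion cannot be told apart.

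Close nuclear copies of 2 of the genes have rows of their own. MTND2P28 (chr1:565020-566063, + strand, GRCh37), 98.2% identical to MT-ND2, had 4834 to 5701 raw counts with IgA and 8080 to 11079 in the rest of the first series. MTATP6P1 (chr1:569076-569756, + strand), 98.5% identical to MT-ATP6, had 26067 to 42103 raw counts with IgA and 37668 to 54751 in the rest. These values are not scaled to library size. Scaling would multiply IgA replicate 3 by 1.58 and the other libraries of the series by 0.806 to 1.12. The raw ranges therefore do not show whether the scaled levels differ. Reads can move between such copies and the mitochondrial genes through single base differences, and all 188 rows of nuclear copies together held at most 76488 counts in a library.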

How the data were processed

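Total RNA of OVCAR3 cells was prepared with the Ovation Human FFPE RNA-Seq kit and sequenced as paired-end reads. The values deposited by the authors are raw counts, without normalization. Per their methods, reads were trimmed (cutadapt) and mapped with STAR on GRCh37, and those with a single alignment were assigned to genes by featureCounts. The submitters' processing notes name bcl2fastq 2.20.0.422, cutadapt 1.8.1 and HTSeq 0.6.1. The strand setting of the counting is not given in the sources used here. The members, gene lists, tests and alternatives were chosen with earlier results of these data known.

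The second table held 57820 rows, of which 2055 exact duplicates were dropped, which left 55765 as in the first. Groups and replicate numbers came from the sample titles. Replicates differed by more than sampling noise (the chi-square was 4.16 to 259 times its degrees of freedom), so none was counted as a copy. Each series was fitted once with its 9 libraries in edgeR 4.0.16 (R 4.3.3) with TMM scaling, filterByExpr and the two-sided quasi-likelihood F test. P-values were adjusted by Benjamini-Hochberg over all genes tested in a comparison, called under 0.05, and the SE came from the log2 fold change and F. Of the 37 rows, 35 passed the filter in each series; MT-TN and MT-TC did not in the first, MT-TN and MT-TR in the second. Shares were compared by exact permutation tests (scipy 1.17.1).

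All called members, the largest and smallest fold change in a comparison and MT-ND6 were named by rule. From each nuclear list the 3 largest called changes were named. TFAM, POLRMT and TOP1MT, and the protein-coding genes and tRNA rows named only without IgA replicate 3, were named after their values were seen. Gene positions were taken from GENCODE on GRCh37. The scripts were tested on simulated data. Alternatives were DESeq2 1.42.0, limma 3.58.1 voom with sample quality weights, other scalings and filters, a replicate block and leaving out each library. Library totals ranged from 27920733 to 47381836 counts, and since the reads carry no molecular identifiers, the spread between replicates set the precision.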

Additional observations from a re-analysis of the deposited data

How the results depend on the processing

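At an adjusted p under 0.01, IgA had 0 higher and 1 lower against IgG, and 0 and 3 against untreated cells. Of all 18012 genes, 1114 and 927 passed against IgG, and 1166 and 964 against untreated cells. At that threshold BDNF IgA had 3 lower, and TSPAN7 IgA had 0 higher against untreated cells and 0 against BDNF IgA. Of all 18732 genes, 235 were lower with BDNF IgA. With TSPAN7 IgA, 429 were higher against untreated cells and 223 against BDNF IgA. Without a filter on low counts, IgA had 8 higher against IgG and 8 in each direction against untreated cells. BDNF IgA then had 12 lower, TSPAN7 IgA had 3 higher and 4 lower, and TSPAN7 IgA against BDNF IgA had 12 higher and 1 lower. Of all 33764 genes then tested in the first series, 2282 were higher against IgG, and 2369 higher and 2447 lower against untreated cells. Of 34482 in the second, 753 were lower with BDNF IgA, and 931 higher and 937 lower with TSPAN7 IgA. Between these antibodies 804 were higher and 1079 lower. With only the 6 libraries compared, IgA had 2 higher against IgG, and 2 higher and 3 lower against untreated cells. TSPAN7 IgA had 3 higher against untreated cells and 2 against BDNF IgA. Over all genes IgA had 1599 higher of 17173 against IgG, and 1789 higher and 1512 lower of 17076 against untreated cells. TSPAN7 IgA had 1177 higher of 18098 against untreated cells and 427 of 18131 against BDNF IgA. DESeq2 called 3 higher with IgA against untreated cells, beside 2676 of all 18012 genes. The voom fit gave 11 lower with BDNF IgA, 3 higher with TSPAN7 IgA and 12 higher with TSPAN7 IgA against BDNF IgA. Of all 18732 genes, voom called 1088, 1270 and 1319 in those directions, against 596, 836 and 641 in the main fit. A filter of 10 counts in every library of a group gave 2 higher with TSPAN7 IgA against BDNF IgA, beside 660 of 17809 genes. The cause was not tested. Scaling by library size alone moved the median of all genes on the log2 scale to -0.25 for IgA against IgG, where 873 genes were higher and 3631 lower in place of 2265 and 2095, and left the mitochondrial counts at 5 and 4. RLE factors, scaling without mitochondrial rows, with or without cytosolic rRNA, and keeping duplicate rows left every mitochondrial count within 1.5 times.

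Leaving out 1 library gave 1 to 7 higher and 2 to 10 lower for IgA against IgG, 0 to 6 and 3 to 11 for IgA against untreated cells, 3 to 9 lower for BDNF IgA, 0 to 1 higher for TSPAN7 IgA, and 0 to 11 higher and 0 to 1 lower for TSPAN7 IgA against BDNF IgA. In the transcription list it gave 0 to 3 higher for IgA against IgG, 1 to 2 higher and 4 to 9 lower for IgA against untreated cells, 0 to 2 lower for BDNF IgA, 0 to 2 lower for TSPAN7 IgA and 0 to 2 higher and 0 to 1 lower between them. In the processing list it gave 0 to 2 higher and 2 to 6 lower for IgA against IgG, 0 to 3 and 1 to 5 for IgA against untreated cells, 0 to 1 in each direction for BDNF IgA, 1 to 3 higher for TSPAN7 IgA and 0 to 2 higher between them. Over all genes these fits called 7.19% to 13.6% higher and 6.59% to 14.9% lower for IgA against IgG. For IgA against untreated cells they called 7.37% to 13.5% and 6.67% to 14.7%. The share lower ran from 1.53% to 6.74% for BDNF IgA. The share higher ran from 2.24% to 3.59% for TSPAN7 IgA and from 1.02% to 8.1% between the antibodies. DESeq2 gave 1 processing gene higher for IgA against IgG, and 2 transcription genes and 1 processing gene lower for BDNF IgA. It gave 2 processing genes higher for TSPAN7 IgA, and 1 transcription gene lower for TSPAN7 IgA against BDNF IgA. Of all 18012 genes, DESeq2 called 2645 higher for IgA against IgG. Of all 18732 it called 767 lower for BDNF IgA, 906 higher for TSPAN7 IgA and 917 lower for TSPAN7 IgA against BDNF IgA.

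Some directions turned. For the fold changes, MT-ND5 was -0.16 against IgG and -0.22 against untreated cells by library size alone, -0.19 and -0.36 by voom, and MT-ND6 was -0.057 and -0.16 by library size alone and -0.10 against untreated cells by voom. Leaving out 1 library, the log2 fold changes with IgA against IgG ran from -0.59 to 0.41 for MT-ND5, -0.15 to 0.45 for MT-ND6, -0.58 to 0.14 for MT-ATP8, -0.44 to 0.22 for MT-ATP6, -0.56 to 0.055 for MT-CO3 and -0.81 to 0.17 for MT-CYB. Against untreated cells they ran from -0.67 to 0.32 for MT-ND5, -0.27 to 0.33 for MT-ND6, -0.55 to 0.11 for MT-ATP6, -0.61 to 0.013 for MT-CO3 and -0.90 to 0.092 for MT-CYB. With medians in place of means, the difference in mitochondrial share was -0.0620 percentage points for IgA against untreated cells, the difference in rRNA share was 0.112 for TSPAN7 IgA against BDNF IgA, and those in tRNA share were 0.0213 for IgA against IgG, 0.0215 for IgA against untreated cells and 0.000281 for IgG against untreated cells.

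Leaving out 1 library, the difference in mitochondrial share ran from -0.769 to 5.91 percentage points for IgA against IgG, -1.08 to 5.59 for IgA and -0.704 to 0.0151 for IgG against untreated cells, and -0.479 to 0.287 for TSPAN7 IgA against untreated cells. For the rRNA share it ran from -0.118 to 0.376 for BDNF IgA and -0.124 to 0.235 for TSPAN7 IgA against untreated cells, and -0.329 to 0.165 between them. For the tRNA share it ran from -0.0569 to 0.0253 for IgA against IgG, -0.0577 to 0.0245 for IgA and -0.00364 to 0.00253 for IgG against untreated cells, and -0.00805 to 0.00128 for BDNF IgA. For the MT-ND6 share it ran from -0.0716 to 0.00676 for IgG and -0.0249 to 0.0126 for BDNF IgA. No test of a share could pass 0.05 with 3 libraries a group.

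The correlation of deviations from the group means between same-numbered libraries of different groups was -0.069 to 0.247 in the first series, where 1 of 9 pairs was over 0.1, and -0.017 to 0.089 among the 9 pairs of the second, so the numbers were not taken as pairs. With the replicate number as a block, MT-ND5 turned to -0.0078 against IgG and -0.12 against untreated cells, IgA had 1 processing gene higher against IgG and 1 transcription gene higher against untreated cells, BDNF IgA had 2 transcription genes and 1 processing gene lower, and TSPAN7 IgA had 1 transcription gene lower against BDNF IgA. Of all 18012 genes, the block fit called 2226 higher for IgA against IgG and 2284 higher against untreated cells. Of all 18732 it called 706 lower for BDNF IgA and 955 lower for TSPAN7 IgA against BDNF IgA. The block left every count of mitochondrial genes within 1.5 times.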
